A study of Mus musculus with 19 samples.

Results

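Mycl and its partners in the Myc, Max and Mxd network were followed across fat and pancreatic lymph nodes (PLNs) of NOD mice, a strain that develops autoimmune diabetes. The network was represented by 7 genes, Mycl, Myc, Mycn, Max, Mxd1, Mxd4 and Mxi1, and every probe set of the array that names one of them was taken, which gave 17 of the 45037 probe sets tested and 7 of the 18193 genes. Mycl and Myc were chosen by their low signal in diabetic fat, so their fat values stand as a description with no test. All mice were female NOD/LtJx animals, and RNA was measured on Affymetrix mouse expression arrays, with 1 signal per probe set on a linear scale.

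The 19 arrays fell into 7 groups. In fat, 2 arrays came from normoglycemic NOD mice (NOR), 2 from mice with new onset diabetes (DIA), 2 from new onset diabetic mice treated with alpha1 antitrypsin (AAT), a serum protease inhibitor, and 3 from new onset diabetic mice treated with Power Mix (PM). PM combines IL2.Ig, an antagonist-type mutant IL15.Ig and rapamycin, an inhibitor of mTOR. In PLNs, 4 arrays were NOR, 2 DIA and 4 AAT. The labels give no age. Nor do they tie arrays to single mice, so the p-values measure only the spread between these arrays, which may be technical.

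Myc, Mycn and Mycl are transcription factors that drive growth and cell division genes, and they bind DNA only as a pair with Max, at E-box letters. Mxd1, Mxi1 (also called Mxd2) and Mxd4 compete for Max and bring in Sin3 and histone deacetylase complexes, which repress the same genes. Myc is a classic early response gene of dividing lymphocytes. Mycl is known from lung cancer and from dendritic cells. In these mixed tissues, fewer cells of a type and less RNA per cell cannot be told apart.

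The E-box is the letter code through which the network reads DNA, and it also lies in some of the network's own promoters. The RefSeq promoter table of build GRCm38.p6 was searched from 250 bases before to 25 bases after each gene start. CACGTG, the canonical E-box, reads the same on both strands, and CACGCG, a variant, was searched on both strands (CGCGTG on the other). The table gave 8 windows for 6 of the 7 genes (3 for Mxi1), and Myc was not searched. CACGTG stood in 2 of the 8 windows (Max and Mxd4) against 6.68% of all 32851 windows of 275 bases, and CACGCG in 1 of the 8 (Mycl) against 8.49% of all windows. The 3 windows are shown because they hold a match. The capitals mark the match, which starts at position −20 in Mycl, −3 in Max and −219 in Mxd4, counted from the gene start.
Mycl, chr4:122995681-122995955, plus strand: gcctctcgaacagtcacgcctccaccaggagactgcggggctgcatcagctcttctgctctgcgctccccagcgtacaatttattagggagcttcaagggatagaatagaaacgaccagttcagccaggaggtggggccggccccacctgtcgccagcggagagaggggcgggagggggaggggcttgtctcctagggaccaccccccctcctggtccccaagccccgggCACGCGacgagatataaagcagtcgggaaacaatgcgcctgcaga
Max, chr12:76962224-76962498, minus strand: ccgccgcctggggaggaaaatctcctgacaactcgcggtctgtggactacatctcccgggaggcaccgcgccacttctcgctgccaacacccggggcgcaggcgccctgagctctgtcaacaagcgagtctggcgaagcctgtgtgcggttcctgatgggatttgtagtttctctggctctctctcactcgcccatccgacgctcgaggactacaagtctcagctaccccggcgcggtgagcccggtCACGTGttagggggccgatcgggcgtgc
Mxd4, chr5:34187686-34187960, minus strand: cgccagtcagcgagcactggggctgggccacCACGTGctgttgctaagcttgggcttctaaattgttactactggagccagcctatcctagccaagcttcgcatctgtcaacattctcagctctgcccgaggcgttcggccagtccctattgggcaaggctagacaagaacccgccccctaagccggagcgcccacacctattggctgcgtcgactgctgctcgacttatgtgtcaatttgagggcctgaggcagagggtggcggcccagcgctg
A match is a description of letters and not of binding. The Mxi1, Mycn and Mxd1 windows held neither code.

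The arrays agreed within groups with a Pearson correlation of 0.789 to 0.866 over all probe sets in fat and 0.705 to 0.890 in PLNs. The tissues carried their own markers. Adipoq, the adipocyte hormone adiponectin, had signals of 15690 to 60260 in fat, and Cd3e, a chain of the T cell receptor complex, had 36.3 to 187 in fat against 3622 to 12440 in PLNs. The ratio of actin signal at the 3′ end to that at the 5′ end, a sign of RNA or label quality, was 15.2 and 15.5 on the DIA fat arrays and 3.35 to 9.08 on the other fat arrays. In PLNs the Gapdh ratio ran from 5.55 to 8.01 in NOR and from 7.42 to 24.97 in AAT, and array medians were 92.2 to 178 in AAT against 179 to 265 in NOR. Ctrb1, which encodes an acinar protease of the pancreas, ran from 60.9 to 19540 over the AAT PLN arrays and from 14.0 to 77.5 over the NOR ones.

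Changes below are differences of mean log2 signal between groups relative to the median change of all probe sets, with the standard error (SE) of the fit, and each p belongs to the change as measured. The median change was between −0.11 and 0.17 in the fat comparisons, and it was −0.11 for DIA vs NOR, −0.58 for AAT vs DIA and −0.72 for AAT vs NOR in PLNs. A probe set is called at an adjusted p under 0.05 (limma, Benjamini-Hochberg over all 45037 probe sets). The thresholds named in the methods, called the study's thresholds below, ask for a change over 2-fold with p (unadjusted) no higher than 0.05.

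Mycl was low in fat of diabetic mice and at or near its normal signal in fat of treated mice. Its brightest probe set (1434777_at) had signals of 1606 and 1137 in NOR, 102.5 and 53.2 in DIA, 657 and 1585 in AAT, and 645, 1320 and 990 in PM. Every DIA array lay below every array of the other groups, while NOR, AAT and PM overlapped. Within its own array the probe set stood at the 87.1st and 92.1st percentile of all signals in NOR and at the 20.5th and 29.1st in DIA. The change was −4.09 (SE 0.53) for DIA vs NOR, 3.84 (SE 0.53) for AAT vs DIA and 3.53 (SE 0.49) for PM vs DIA, and the PM and AAT groups differed by −0.28 (SE 0.49). With the actin ratio as a covariate the first 3 were −2.45 (SE 1.06), 2.89 (SE 0.68) and 2.14 (SE 0.89), and with the Gapdh ratio −2.71 (SE 0.70), 2.79 (SE 0.57) and 2.23 (SE 0.66).

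The other Mycl probe sets did not move alike. 1422088_at had 553.5 and 172.2 in NOR, 145.6 and 44.5 in DIA, 61.0 and 308 in AAT, and 172, 414 and 256 in PM. DIA lay below NOR and PM but overlapped AAT. The remaining 1422087_at had 185 to 241 in NOR and 163 to 234 in DIA, and its change was 0.00 (SE 0.72). Over the 9 fat arrays, 1434777_at correlated with 1422088_at at r = 0.74 and with 1422087_at at r = −0.06, given as descriptions. The mean over the 3 probe sets changed by −1.98 in DIA vs NOR.

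Myc, the growth regulator, followed the same course in fat with a smaller size. Its only probe set had 527 and 465 in NOR, 155 and 150 in DIA, 343 and 492 in AAT, and 479, 461 and 367 in PM. Both DIA arrays lay below the 7 others. The change was −1.59 (SE 0.45) for DIA vs NOR, 1.48 (SE 0.45) for AAT vs DIA and 1.36 (SE 0.41) for PM vs DIA. With the actin ratio as a covariate these were −1.51 (SE 1.06), 1.38 (SE 0.68) and 1.24 (SE 0.89). With the Gapdh ratio they were −1.51 (SE 0.77), 1.35 (SE 0.63) and 1.29 (SE 0.72), so the sizes held while the SEs grew. Across the 9 fat arrays Myc and Mycl correlated at r = 0.96 (Spearman 0.82), and at r = 0.62 over the 7 arrays without DIA. These arrays share 1 scaling and 2 of them set most of the spread.

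**Figure D1:**
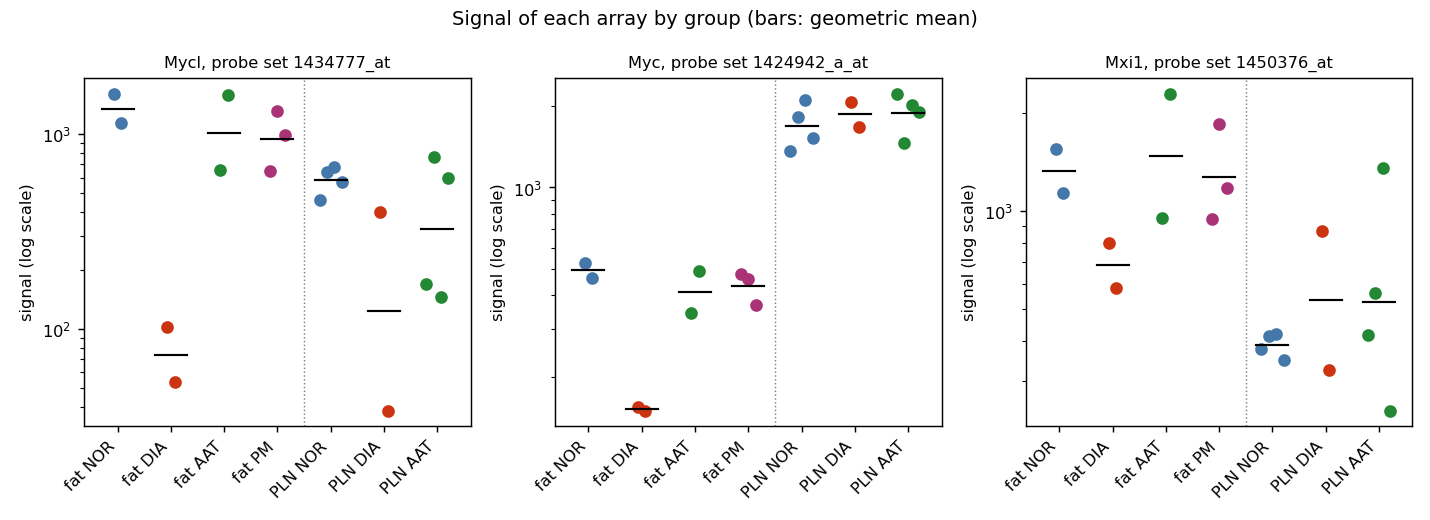
Signal per array on a log axis for Mycl (1434777_at), Myc and Mxi1 (1450376_at) in the 4 fat and 3 PLN groups, with points for arrays and bars for the geometric mean. The DIA fat points of Mycl (102.5 and 53.2) and Myc (155 and 150) lie below all other fat points, whereas in PLNs the Myc groups overlap and 1 DIA array sets the low Mycl mean.

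Mycn, the relative best known from neural tumours, was dim in fat and showed no such course. Its 3 probe sets changed by −0.11, −0.04 and 0.21 in DIA vs NOR, and the groups overlapped for each. Under AAT, 1417155_at had 3.01 and 240 on the 2 arrays, a spread wider than any change between groups.

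Max, the shared partner, was split between the DIA fat arrays. It had 567 and 484 in NOR, 72.1 and 509 in DIA, 536 and 333 in AAT, and 408, 688 and 831 in PM. The change was −1.34 (SE 0.76, adjusted p = 0.609) for DIA vs NOR and 1.54 (SE 0.69, adjusted p = 0.481) for PM vs DIA, and neither was called. The PM difference was 0.10 without DIA array 1 and 3.03 without DIA array 2, so it rests on array 1, and it was 2.35 with the actin ratio and 3.76 with the Gapdh ratio as a covariate.

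Among the repressors, Mxi1 was low in DIA fat in both probe sets. Its probe set 1450376_at had 1554 and 1142 in NOR, 801 and 580 in DIA, 956 and 2289 in AAT, and 946, 1853 and 1183 in PM. Both DIA arrays lay below all others. Its change was −0.86 for DIA vs NOR and 1.17 (SE 0.46, adjusted p = 1) for AAT vs DIA. The latter was 0.64 without AAT array 2, 0.16 with the actin ratio as a covariate and 0.31 with the Gapdh ratio. The second probe set, 1425732_a_at, had 355 and 296 in NOR, 10.6 and 53.5 in DIA, 241 and 310 in AAT, and 222, 52.3 and 153 in PM. DIA lay below NOR and AAT and overlapped PM by 1 array. Its changes were −3.66 (SE 0.98, adjusted p = 0.417) for DIA vs NOR, 3.57 (SE 0.98, adjusted p = 1) for AAT vs DIA and 2.19 (SE 0.89, adjusted p = 0.454) for PM vs DIA, none called. Without DIA array 1 they were −2.46, 2.36 and 1.01, and without DIA array 2 −4.91, 4.81 and 3.45. Over the 9 fat arrays Mycl and Mxi1 (1450376_at) correlated at r = 0.86, and at r = 0.88 without the DIA arrays.

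Mxd1 and Mxd4 gave no common direction in fat. Mxd1 changed by −1.88 (SE 1.26), 0.44 (SE 0.62) and 0.00 (SE 1.12) over its 3 probe sets in DIA vs NOR, and the first of these rests on a NOR pair of 264 and 22.9. Mxd4 changed by −1.02, 0.46, 0.32 and 1.74 over its 4 probe sets. Its brightest one, 1434378_a_at, had 1467 and 1821 in NOR, 1864 and 1934 in DIA, 2085 and 1236 in AAT, and 2283, 632 and 1451 in PM. Adjusted p-values of these 7 probe sets lay at 0.666 or above.

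No member was called in any fat comparison, nor was any of the 45037 probe sets (0% for DIA vs NOR, 0% for AAT vs DIA, 0% for PM vs DIA and 0% for PM vs AAT). At an unadjusted p under 0.05 stood 4036, 2137, 4365 and 2500 probe sets in that order. At the study's thresholds 3 of 17 member probe sets were lower in DIA vs NOR (3.88% of all were), 4 of 17 were higher in AAT vs DIA (2.03% of all) and 4 of 17 were higher in PM vs DIA (4.6% of all). None of the 17 passed in PM vs AAT, in either direction, against 4.88% of all. The 3 were Mycl (1434777_at), Myc and Mxi1 (1425732_a_at), and the same 3 passed in both treatment comparisons, joined by Mxi1 (1450376_at) under AAT and Max under PM. Since Mycl and Myc were selected on these contrasts, nothing is read from the shares. The treatment comparisons share the DIA arrays. By rank products computed here over all pairs of arrays, 7, 7, 5 and 4 of the 17 passed in the 4 fat comparisons. Beside them passed 20.4%, 17.9%, 23.2% and 19.2% of all probe sets. The pairs share arrays but were permuted as if independent. The methods name the RankProd package, on RMA values and for normal vs diabetic mice, so these counts are not those of the paper's test.

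**Figure D2:**
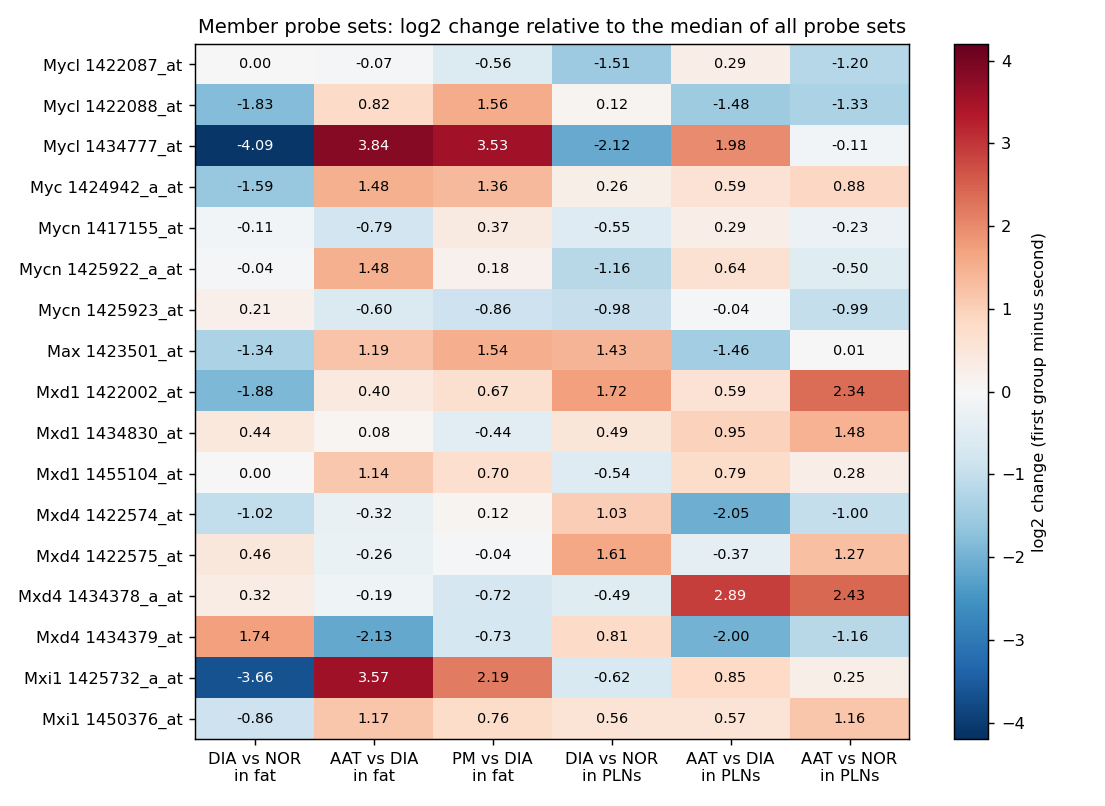
Change in log2 signal, first group minus second and relative to the median of all probe sets, for the 17 member probe sets (rows) in 6 comparisons (columns), with the value printed in each cell. Mycl (1434777_at, −4.09), Myc (−1.59) and Mxi1 (1450376_at, −0.86, and 1425732_a_at, −3.66) are low in DIA fat, with higher means in both treated groups. In PLNs the largest positive values belong to Mxd4 (1434378_a_at, 2.89 and 2.43).

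Markers of other cells also differed between the fat groups. All 10 macrophage markers measured were above the median change in DIA vs NOR, with a summed signal of 13923 to 26092 in DIA, 6128 to 6496 in NOR, 9143 to 16015 in AAT and 9444 to 12809 in PM. Of these markers 4, C1qb and C1qc among them, were higher at the study's thresholds, as were 3.32% of all 18193 genes. All 6 erythroid and platelet markers measured lay below the median change (summed signal 2921 to 3747 in DIA against 9660 to 12870 in NOR). Their sums were 4790 to 11812 in AAT and 6252 to 8345 in PM, so DIA lay below all other fat arrays, as for Mycl and Myc. Adipocyte markers summed to 152228 to 288352 in DIA and 253678 to 347194 in NOR. Dendritic cell markers summed to 6582 to 7813 in DIA and 4419 to 9651 in NOR, so the groups overlapped. The part of these shifts in the course of Mycl and Myc was not tested.

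The wider network was read in the same fits, with 1 probe set per gene and changes relative to the median of all genes. Of the 6 further network members, 5 lay above the median in DIA fat (median 0.50), and none was called. Mlxipl, the glucose-sensing factor of the parallel Mlx branch, went opposite to Mycl. It had 1632 and 967 in NOR, 5438 and 5628 in DIA, 1620 and 389 in AAT, and 1725, 813 and 1181 in PM. Both DIA arrays lay above all other fat arrays. Its change was 2.24 (adjusted p = 0.417) for DIA vs NOR, −2.79 (adjusted p = 0.737) for AAT vs DIA and −2.33 (adjusted p = 0.337) for PM vs DIA. Mnt, a general Max-bound repressor, changed by 0.36 (adjusted p = 0.840) in DIA vs NOR, and Mga, the largest Max partner, by 1.00 (adjusted p = 0.626).

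Textbook targets of Myc did not show one direction in DIA fat. Of 21 ribosome biogenesis targets, 11 lay above the median of all genes (list median 0.02), and 1, the nucleolar protein Npm1, was lower at the study's thresholds (−1.69, adjusted p = 0.426). Of 23 growth and metabolism targets, 8 lay above (list median −0.36), and 3 passed those thresholds: Cad and Prdx3 lower and the amino acid transporter Slc7a5 higher (2.19, adjusted p = 0.512). Of 8 genes that Myc represses, 5 lay above (median 0.38). Coactivators had 6 of 13 above (median −0.14), corepressors 4 of 9 (0.00), turnover factors 8 of 11 (0.23) and cell cycle genes 5 of 17 (−0.44). Over all 18193 genes, 3.32% were higher and 3.46% lower at these thresholds.

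Early response genes, the class to which Myc belongs, were read in the same contrast. Of 21 measured, 9 lay above the median (list median −0.13), 5 passed the study's thresholds downwards (Fos, Egr1, Ier2, Dusp1 and Zfp36) and 1 was higher (Jund). Egr1 had 7993 and 8115 in NOR, 640 and 1541 in DIA, 5425 to 11180 in AAT and 6016 to 17680 in PM. Zfp36, an RNA-destabilizing protein, had 2447 and 3658 in NOR, 837 and 1066 in DIA, 3590 to 3953 in AAT and 4202 to 6069 in PM. For both, DIA lay below all other fat arrays. At the same thresholds 7 of the 21 were higher in the AAT comparison and 6 in the PM comparison with DIA, with none lower, whereas 2.03% and 3.91% of all genes were higher. None was called. These genes were known to move in the same arrays, so they are no independent evidence.

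Genes whose log2 signal ran most like Mycl over the 9 fat arrays, among 9096 genes at or above the median level, were Ipo5 (r = 0.98), Pnrc1 (0.98), Gpbp1 (0.97), Gabarapl1 (0.97) and Fxr1 (0.97). Ipo5 is a nuclear import receptor and Gabarapl1 an autophagy protein. The genes most like Myc were Pnrc1 (0.97), Gpbp1 (0.97), Strap (0.97), Mycl (0.96) and Aff4 (0.96), so Mycl was the fourth most alike. Without the DIA arrays, r for the 5 genes most like Mycl fell to between 0.62 and 0.87. Pnrc1, a nuclear coactivator, had 9273 and 9282 in NOR and 5037 and 5242 in DIA.

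In PLNs, Myc was bright and did not separate the groups. It had 1363, 1816, 2107 and 1528 in NOR, 2075 and 1673 in DIA, and 2208, 1460, 2018 and 1905 in AAT, the 89.2nd to 94.3rd percentile of each array. Its changes were 0.26 (SE 0.41, adjusted p = 0.945) for DIA vs NOR, 0.59 (SE 0.41, adjusted p = 0.992) for AAT vs DIA and 0.88 (SE 0.33, adjusted p = 0.788) for AAT vs NOR. The difference of the DIA effect between fat and PLNs was −1.94 (SE 0.59), given with no test because the fat change was used in choosing Myc. It was −1.34 (SE 0.99) with the actin ratio as a covariate and −2.03 (SE 0.64) with the Gapdh ratio.

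Mycl varied widely between PLN arrays of the same group. 1434777_at had 462, 637, 683 and 567 in NOR, 400 and 38.1 in DIA, and 171, 763, 145 and 596 in AAT. Both DIA arrays lay below NOR, but AAT overlapped all, with 2 arrays high and 2 low. The high ones, AAT arrays 2 and 4, had Gapdh ratios of 20.6 and 24.97 and array medians of 92.2 and 94.1. The low ones, AAT arrays 1 and 3, had ratios of 7.42 and 8.30 and medians of 178 and 130. The part of RNA or label quality in this split was not tested. The change for DIA vs NOR was −2.12 (SE 0.83, adjusted p = 0.359), not called, and it was −0.76 without DIA array 2, −3.63 without DIA array 1 and −3.26 with the Gapdh ratio as a covariate. For AAT vs DIA it was 1.98 (SE 0.83, adjusted p = 0.393) and for AAT vs NOR −0.11 (SE 0.68, adjusted p = 0.456).

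None of the 5 genes most like Mycl in PLNs was among the 5 most like it in fat. Over the 10 PLN arrays they were Stab2 (r = 0.98, Spearman 0.89), Col6a1 (0.94), Stab1 (0.91), Col4a2 (0.91) and Ptger3 (0.90). Stab1 and Stab2 encode scavenger receptors of sinus-lining endothelium, Col6a1 and Col4a2 collagen chains, and Ptger3 a prostaglandin receptor. Stab2 had 739, 864, 694 and 528 in NOR, 446 and 68.4 in DIA, and 231, 977, 272.5 and 603 in AAT, so the same 3 arrays with the lowest Mycl had the lowest Stab2. Without the 2 arrays farthest from the Mycl median, r was 0.92 for Stab2, 0.89 for Col6a1, 0.86 for Stab1, 0.55 for Col4a2 and 0.52 for Ptger3. The 5 were picked as the highest of 9096, so their size is a description. AAT arrays 2 and 4, high in both Mycl and Stab2, also had the high Gapdh ratios of 20.6 and 24.97, whose part was not tested. The list of 8 endothelial markers overlapped between the groups. It summed to 3233 to 4936 in NOR, 2669 to 4109 in DIA and 1955 to 9007 in AAT. In DIA vs NOR Kdr (−1.89, adjusted p = 0.287) and Tek (−2.81, adjusted p = 0.223), both receptors of endothelial growth factors, were lower at the study's thresholds, as were 7.87% of all genes.

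**Figure D3:**
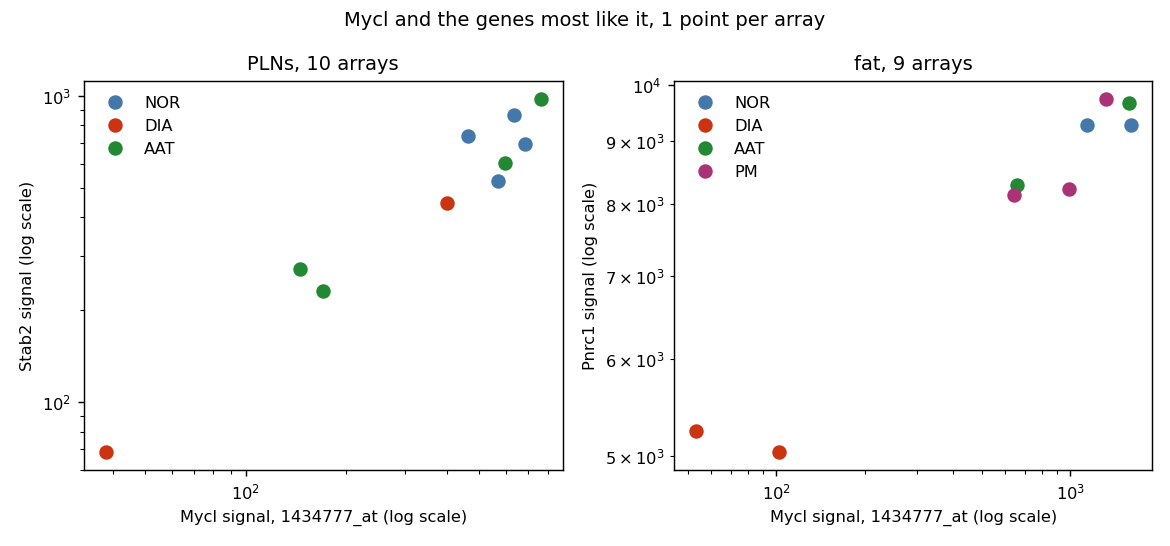
Signal of Mycl (1434777_at, x axis) against Stab2 in PLNs (left) and Pnrc1 in fat (right) on log axes, 1 point per array, coloured by group. In PLNs the low Mycl arrays (38.1 in DIA, 145 and 171 in AAT) are also the low Stab2 arrays (68.4, 272.5 and 231), and in fat the DIA pair stands apart from the 7 other arrays.

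The clearest change of a repressor was that of 1 Mxd4 probe set in PLNs. Mxd4 is expressed as cells leave the cycle and mature. 1434378_a_at had 2845, 1834, 2309 and 2916 in NOR, 1084 and 2363 in DIA, and 7379, 5806, 10590 and 8760 in AAT. All 4 AAT arrays lay above all 6 others, while DIA and NOR overlapped. It rose by 2.89 (SE 0.43, adjusted p = 0.0450) in AAT vs DIA and by 2.43 (SE 0.35, adjusted p = 0.0188) in AAT vs NOR. These are limma's adjusted p-values, and as measured, without the median taken off, the rises were 2.31 and 1.71. The call for AAT vs NOR was lost without any 1 of the 4 NOR arrays (adjusted p up to 0.0632), and that for AAT vs DIA without any of 7 of the 10 PLN arrays (NOR arrays 1 to 4, DIA array 1, AAT arrays 3 and 4, adjusted p up to 0.545). With the actin ratio as a covariate the AAT vs DIA call was lost (adjusted p = 0.256), and with the Gapdh ratio the AAT vs NOR call (adjusted p = 0.0648). Both were lost under quantile normalization (0.0754 and 0.0968) and under eBayes without a trend (0.207 and 0.0932). The size also fell under quantile normalization, to 2.03 in AAT vs DIA and 1.21 in AAT vs NOR, both relative to the median.

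The remaining Mxd4 probe sets did not share that rise. 1422574_at had 304, 439, 263 and 271.5 in NOR, 922.5 and 376 in DIA, and 262, 287, 130 and 8.28 in AAT, a change of −2.05 (SE 1.05, adjusted p = 0.229) in AAT vs DIA. 1422575_at changed by −0.37 (adjusted p = 0.668) and 1434379_at by −2.00 (adjusted p = 0.365). Over the 10 arrays 1434378_a_at correlated with them at −0.69, −0.03 and −0.73, and the mean over the 4 changed by −0.38 in AAT vs DIA and 0.39 in AAT vs NOR. Where each probe set lies on the transcript was not analysed here.

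**Figure D4:**
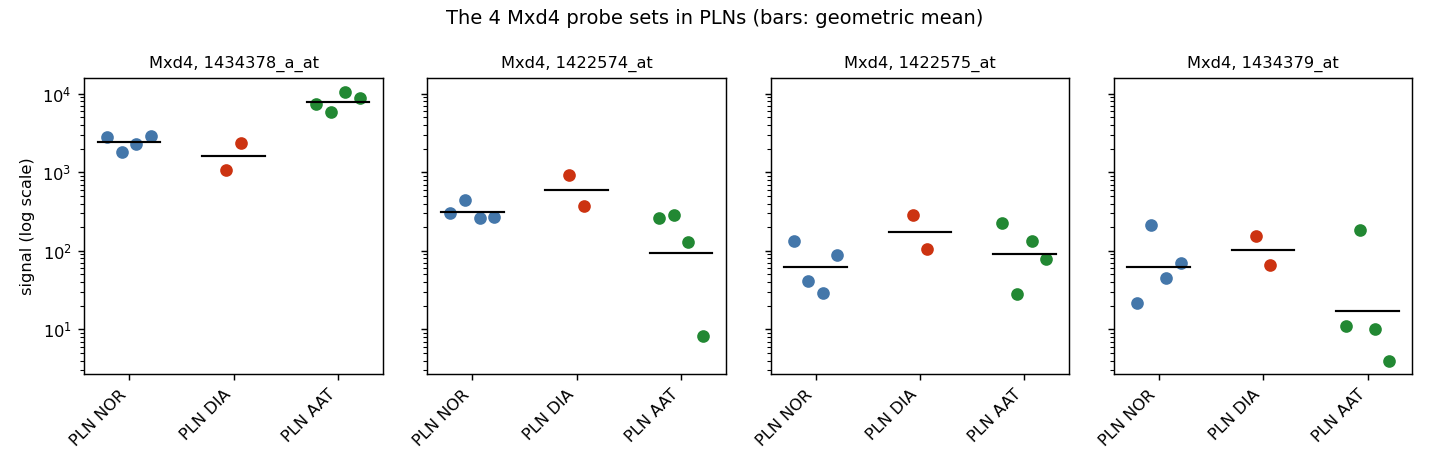
Signal of the 4 Mxd4 probe sets in the 10 PLN arrays on a shared log axis, with points for arrays and bars for the geometric mean. Only 1434378_a_at separates AAT (5806 to 10590) from NOR (1834 to 2916) and DIA (1084 and 2363), and in the other panels AAT overlaps NOR.

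Mxd1, a repressor induced on differentiation, was higher in AAT than in NOR in 1 of its probe sets without being called, and about as high in DIA. 1422002_at had 36.0, 63.4, 189 and 41.7 in NOR, 170 and 231 in DIA, and 316, 163, 300 and 103 in AAT. NOR and AAT overlapped, and the geometric mean was 198.3 in DIA and 199.9 in AAT. Its change in AAT vs DIA was 0.59 (SE 0.91, adjusted p = 0.996), or 0.01 as measured. In AAT vs NOR it was 2.34 (SE 0.74, adjusted p = 0.184). The brighter 1434830_at changed by 1.48 (SE 0.42, adjusted p = 0.262) and 1455104_at by 0.28 (SE 0.40, adjusted p = 0.504).

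Max, Mxi1 and Mycn were not called in PLNs. Max had 138, 1083, 304 and 196 in NOR, 1091 and 541 in DIA, and 106, 323.5, 284 and 126 in AAT, so that AAT lay below DIA and NOR spanned both. Its change in AAT vs DIA was −1.46 (SE 0.78, adjusted p = 0.216), and 0.033 with the actin ratio as a covariate. Mxi1 (1450376_at) ran from 350 to 421 in NOR, was 868 and 326 in DIA, and ran from 244 to 1362 in AAT. Mycn (1417155_at) had 195 to 233 in all AAT arrays and 266 to 487 in NOR, groups that did not overlap, yet its change relative to the median was −0.23 (SE 0.53, adjusted p = 0.263).

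In PLNs, 0 of 17 member probe sets were called in DIA vs NOR against 0.0555% of all, 1 of 17 in AAT vs DIA against 0.0999%, and 1 of 17 in AAT vs NOR against 3.74%. Both calls were Mxd4 (1434378_a_at). At an unadjusted p under 0.05 in DIA vs NOR stood 1 member probe set, Mycl, beside 4489 of all. At the study's thresholds 1 was lower in DIA vs NOR (7.15% of all), 1 was higher (4.83%) and 2 were lower (11.7%) in AAT vs DIA, and 2 were higher in AAT vs NOR (3.36%). Out of 17, these are 5.88%, 5.88%, 11.8% and 11.8%, so the first 3 are near the share of all probe sets. The 2 higher in AAT vs NOR were Mxd4 (1434378_a_at) and Mxd1 (1422002_at). The 2 AAT comparisons share the AAT arrays.

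Corepressor genes, the machinery through which the Mxd proteins act, lay on the high side in PLNs under AAT, which was not particular to them. In AAT vs NOR 8 of 9 measured lay above the median of all genes (median 0.79). Every other list except the coactivators (5 of 13) also had most of its genes above, such as macrophage markers (9 of 10) and cell cycle genes (15 of 17). Of the corepressors 2 were called higher, the histone-binding subunits Rbbp4 (2.35, adjusted p = 0.0202) and Rbbp7 (2.13, adjusted p = 0.0260). Over all 18193 genes 331 were called higher. Rbbp4 had 17060 to 25600 in NOR, 32860 and 42080 in DIA, and 39180 to 105100 in AAT. Rbbp4 and Rbbp7 also serve chromatin complexes outside this network. Sin3b, the scaffold that the Mxd proteins bind, changed by 1.61 (adjusted p = 0.107). In AAT vs DIA 8 of 9 corepressors lay above, with none called.

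Myc targets and cell cycle genes were read in the same contrast. In AAT vs NOR 15 of 21 ribosome biogenesis targets lay above (median 0.52) with 1 called higher, Noc4l, and 17 of 23 growth targets lay above (median 0.41) with none called. Of the 8 Myc-repressed genes 6 lay above (median 1.00), Ndrg1 was called higher (1.91, adjusted p = 0.0224) and Thbs1 lower (−3.03, adjusted p = 0.0452). Of 17 cell cycle genes 15 lay above (median 1.02), and the replication helicase genes Mcm2 (2.27, adjusted p = 0.0254) and Mcm5 (3.06, adjusted p = 0.0067) were called higher. Coactivators had 5 of 13 above with Actl6a called higher, and turnover factors 7 of 11 with none called. Of 21 early response genes 15 lay above (median 0.59), with Dusp1 (3.40, adjusted p = 0.0067), Jund and Fosl2 called higher and Fosl1 lower. Over all genes 331 were called higher and 319 lower.

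Acinar, adipocyte and macrophage markers moved with the AAT PLN arrays as well. The 7 acinar markers measured summed to 258 to 125335 in AAT and 279 to 1398 in NOR, and the 9 adipocyte markers to 8161 to 28434 against 3112 to 5630. The median log2 signal of the adipocyte markers overlapped (6.21 to 8.30 and 5.96 to 7.14). Macrophage markers summed to 39564 to 67593 in AAT, 19934 to 30027 in NOR and 11557 to 17813 in DIA, sums that did not overlap. Their median log2 signal in AAT (8.30 to 10.9) spanned NOR (9.185 to 10.16) and DIA (8.71). T cell markers (16392 to 33305 in AAT, 18394 to 33370 in NOR) and B cell markers (17345 to 31055 and 16934 to 24217) overlapped. Dendritic cell markers summed to 42659 to 79455 in AAT and 26158 to 28317 in NOR, whereas the median log2 signal of the 12 markers overlapped (9.86 to 10.60 and 10.18 to 10.83). Erythroid and platelet markers summed to 2304 to 7401 in AAT and 1953 to 2751 in NOR. Their part in the Mxd4 rise was not tested.

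Fat and PLNs of normoglycemic mice differed in the signal of some members of the network. In a fit of all 19 arrays, 7 of 17 member probe sets were called, Myc among them, against 22.2% of all probe sets. Mycl and Myc were chosen with their fat values known, so their differences here are a description and nothing is read from the share. Myc was lower in fat by −1.81 (SE 0.39), with 465 and 527 in fat against 1363 to 2107 in PLNs. Mxd1 was lower by −4.08 (SE 0.71, adjusted p = 2.5e-04) in 1455104_at and −2.31 (SE 0.52, adjusted p = 0.0032) in 1434830_at, while its dim 1422002_at differed by 0.21. The Mxd1 signals of 1455104_at were 65.9 and 66.3 in fat and 858 to 1590 in PLNs. Mxi1 (1450376_at) was higher in fat by 1.73 (SE 0.57, adjusted p = 0.0269), with 1142 and 1554 against 350 to 421. Mxd4 was higher in fat in 1422575_at (2.67, SE 0.79, adjusted p = 0.0160) but not in its brightest probe set (−0.62, adjusted p = 0.387).

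Mycn gave opposite calls in the same comparison. 1425922_a_at was lower in fat (−3.18, SE 1.12, adjusted p = 0.0469) and 1425923_at higher (3.40, SE 1.11, adjusted p = 0.0289), and 1417155_at was at −2.93 (SE 1.10, adjusted p = 0.0613). The probe sets disagree, so no direction is given for Mycn. Mycl (1434777_at) had 1137 and 1606 in fat and 462 to 683 in PLNs, with no overlap, and differed by 1.18 (SE 0.76), given as a description. Max differed by 0.73 (SE 0.77, adjusted p = 0.515).

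The number of calls in the tissue comparison fell to 2 without NOR fat array 2 and to 3 without NOR fat array 1, and to 2 with either RNA ratio as a covariate. Mxd1 (1455104_at) was called without any 1 array (adjusted p at most 0.0063). With the actin ratio as a covariate it was not called (adjusted p = 0.0555), and with the Gapdh ratio it was (adjusted p = 0.0443). The Myc difference, a description, ran from −1.98 to −1.63 with each array left out in turn. It was −1.44 (SE 0.55) with the actin ratio and −1.42 (SE 0.71) with the Gapdh ratio as a covariate. The other calls were lost without at least 1 array, with adjusted p-values up to 0.0730 for Mxd1 (1434830_at), 0.148 for Mxd4 (1422575_at), 0.2002 for Mxi1, 0.228 for Mycn (1425922_a_at) and 0.252 for Mycn (1425923_at). The wider lists were read in the same comparison, in which 2062 of all 18193 genes were called lower and 2409 higher in fat. Of 21 ribosome biogenesis targets 10 were called lower in fat and none higher (median −1.81), Nop56, a nucleolar protein, by −3.52 (adjusted p = 4.6e-06) among them. Of 17 cell cycle genes 8 were called lower and none higher, and Mxd3, a repressor of dividing cells, and Mga were called lower (−2.79, adjusted p = 0.0035, and −2.61, adjusted p = 8.0e-04). Mlxipl was called higher in fat (5.91, adjusted p = 0.0011), as was Cebpa, a Myc-repressed factor of adipocyte maturation (4.30, adjusted p = 3.6e-05). T cell markers were called lower in 9 of 9 genes and adipocyte markers higher in 8 of 9, and the cell types of the tissues and levels per cell cannot be told apart here.

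**Figure D5:**
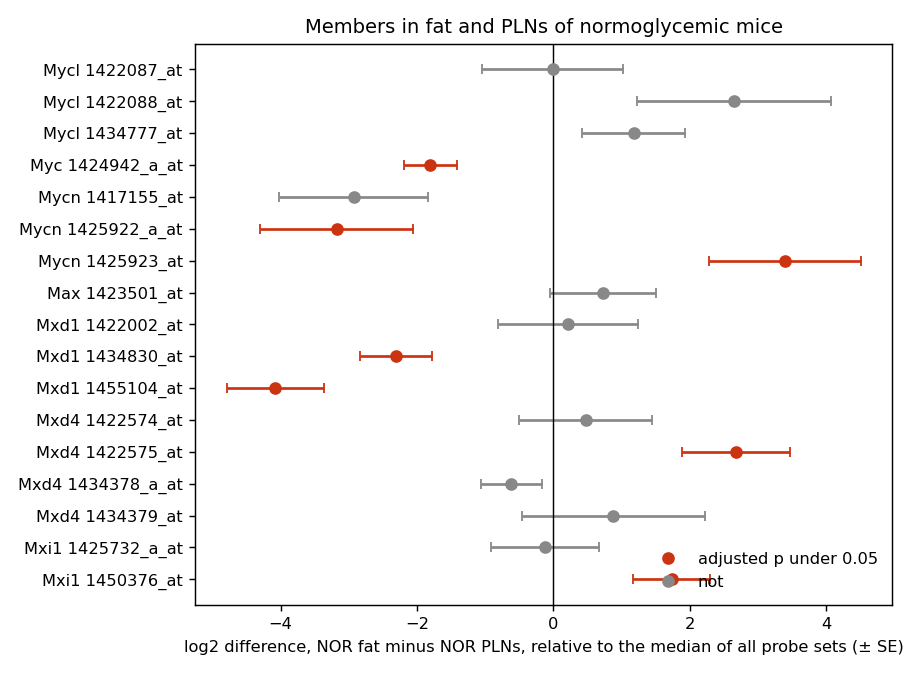
Difference in log2 signal between NOR fat (2 arrays) and NOR PLNs (4 arrays), relative to the median of all probe sets, with bars of 1 SE, for the 17 member probe sets, coloured where the adjusted p is under 0.05. Myc (−1.81) and Mxd1 (−2.31 and −4.08) lie on the PLN side, Mxi1 (1.73) on the fat side, and the Mycn probe sets lie on both. For Myc and Mycl the difference is a description, whatever the colour.

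The difference of the DIA effect between fat and PLNs was called for no member, and for 0.00444% of all probe sets. It was −3.12 (SE 1.21, adjusted p = 0.463) for Mxi1 (1425732_a_at), −2.87 (SE 1.18, adjusted p = 0.497) for Max and −3.69 (SE 1.57, adjusted p = 0.514) for Mxd1 (1422002_at). The Max difference was 0.85, the opposite direction, with the actin ratio as a covariate. With each array left out in turn the values ran from −4.35 to −1.92 for Mxi1 and from −4.34 to −1.42 for Max (nearest 0 without DIA fat array 1), and from −5.29 to −2.04 for Mxd1 (nearest 0 without NOR fat array 1). At an unadjusted p under 0.05 stood 4 of the 17, beside 3997 of all. For Mycl (1434777_at) the fat and PLN changes were −4.09 and −2.12, and their difference of −2.06 (SE 1.16) is a description. With 2 DIA arrays in each tissue, the median SE of this difference over all probe sets was 1.38, which limits what could be detected.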

How the data were processed

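RNA of 9 fat and 10 PLN samples was measured on 19 Affymetrix arrays, which the labels place in 7 groups. The deposited values are 1 linear intensity per probe set, made by the authors with MAS5 according to the submitters' processing notes (no version is stated there). Scaling was such that the 2% trimmed mean of each array lay at 500. The methods name RMA, whose values were not used here.

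Values under 1 were set to 1 and log2 was taken, with no further normalization. Of 45101 probe sets, 64 controls were left out and 34945 of the others name 1 gene (symbols updated through Entrez identifiers for 34741). limma 3.58.1 in R 4.3.3 (labels read with jsonlite 2.0.0) was fitted per tissue with a mean per group and eBayes with a trend, and over all 19 arrays for the tissue comparison and the interaction. The network genes and the 17 lists, written from textbook knowledge, were chosen with earlier results of these data known. The lists hold other network members, Myc coactivators, Mxd corepressors, turnover factors, 3 kinds of Myc targets, early response genes, cell cycle genes and markers of 8 cell types, and 19 listed genes had no probe set naming them alone. All member probe sets were named, the highest-mean one standing for a gene. From a list, up to 4 genes with the smallest p and 2 with the highest mean could be named per comparison, and for Mycl and Myc the 5 genes with the highest correlation. Genes shown by array values, and Cad, Dusp1 and the other single passing genes outside that rule, were chosen after their values were seen. The script was tested on simulated data. Alternatives covered normalization, floor, pseudocount, filters, variance prior, groups fitted, RNA ratios, a replicate block, rank products and each array left out.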

Additional observations from a re-analysis of the deposited data

Results flagged for a closer look

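Of 34 sets of 4 PLN arrays examined (17 probe sets in NOR and in AAT), 1 held an array far from the rest. Mycn (1417155_at) had a signal of 266.3 on NOR PLN array 2 against 463, 479.1 and 487.2 on the others, a gap of 0.916 of the group's range. Chance gives about 1 such set in 20.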

How the results depend on the processing

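Of 353 recomputed counts of member probe sets, 298 stayed within 1.5 times the reported one, 30 moved further, 21 fell to 0 and 4 rose from 0. Of 726 recomputed single changes, 643 kept direction and call (or, for values with no test, moved by less than the replicate spread), and 3 reversed: Max in AAT vs DIA PLNs (0.033) and in the difference of the DIA effect (0.85), both with the actin ratio as a covariate, and Mxd4 in AAT vs DIA PLNs as a mean over its probe sets (−0.38). The single Mxd4 call in AAT vs DIA PLNs became 0 under median centring, quantile normalization, eBayes without trend, only the groups compared and the actin ratio. It also became 0 with a common floor at the 20th percentile of all signals in the fit. That in AAT vs NOR PLNs became 0 under quantile normalization, eBayes without trend and the Gapdh ratio. The 7 tissue calls became 4 with a filter at the 60th percentile and 2 with the actin or the Gapdh ratio. At the study's thresholds, the 4 members in PM vs DIA fat became 2 with the floor, the actin or the Gapdh ratio, and the 0 in PM vs AAT fat became 1 with the Gapdh ratio. In PLNs, the 1 in DIA vs NOR became 2 under quantile normalization, only the groups compared and the Gapdh ratio, the 3 in AAT vs DIA became 1 with the actin ratio, and the 2 in AAT vs NOR became 5 with median centring, 1 with the filter and 4 with the Gapdh ratio. Rank product p-values gave 7 members in DIA vs NOR and 7 in AAT vs DIA fat, 4 in PM vs AAT fat, and in PLNs 5 in DIA vs NOR, 6 in AAT vs NOR and 5 in AAT vs DIA, beside 27.6%, 26.2% and 25.1% of all probe sets in PLNs. The cause of these moves was not tested.

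Leaving out each array in turn gave for members past the study's thresholds 3 to 5 in DIA vs NOR fat, 4 to 5 in AAT vs DIA fat, 2 to 5 in PM vs DIA fat (2 without PM array 3), 0 to 1 in PM vs AAT fat, 1 to 2 in DIA vs NOR PLNs, 2 to 4 in AAT vs DIA PLNs and 1 to 4 in AAT vs NOR PLNs (1 without NOR array 1 or 4, 4 without AAT array 2). Calls ranged from 0 to 1 in both AAT comparisons of PLNs and from 2 to 7 in the tissue comparison, and no call appeared elsewhere. DIA vs NOR fat gave 5 without NOR array 2 or DIA array 2, PM vs AAT fat gave 1 without either AAT array, and DIA vs NOR PLNs gave 2 without NOR array 2 or 3.

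With the array number of the labels as a replicate block, the Mxd4 call in AAT vs DIA PLNs became 0 (adjusted p = 0.0897), and members at the study's thresholds became 2 in PM vs DIA fat and 4 in AAT vs NOR PLNs. Same-numbered arrays did not all deviate together (r from −0.26 to 0.29 over 12 pairs in fat, 4 of them the best match, and from −0.04 to 0.28 over 8 in PLNs, 6 the best match). In PLNs the 6 pairs numbered 1 or 2 had r from 0.17 to 0.28, and the pairs numbered 3 and 4 had −0.04 and 0.01. Since not every pair was above 0.1 and no label ties the numbers to a shared source, they are not taken as pairs. Groups of 2 arrays and signals near background limit the dimmer probe sets most.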
